A study of Mus musculus with 34 samples.

Results

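The regions described here are 2199 distal sites of open chromatin in Brg1-floxed mouse embryoid bodies that were listed both without and with 4-hydroxytamoxifen (4OHT). They are summits, the single bases of highest ATAC-seq signal within called peaks, and were drawn from the 31436 summits of replicate 1 of the floxed group without 4OHT, the anchor library. A summit was selected on measured values, namely its presence in 4 deposited lists. It needed a partner within 250 bp in replicate 2 without 4OHT and in both replicates with 4OHT. It also had to lie more than 5 kb from both ends of every protein-coding gene interval on chromosomes 1 to 19 and X. Last, it had to be absent from at least 1 of 15 other summit lists of the series, called pooled lists because each stands for both samples of its group.

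ATAC-seq uses a transposase that cuts and tags accessible DNA. The series holds 34 samples in 17 groups of 2, and the cells carry an Etv2 transgene switched on by doxycycline (Dox). The floxed embryoid bodies (EB, balls of embryonic stem cells left to differentiate) were taken on day 4 with Dox, either without 4OHT (Brg1-floxed_D4) or with it (Brg1-floxed_4OHT_D4), and both groups carry the floxed allele. The series design text calls the latter knockout EB. The recombinase that 4OHT would switch on, and the number of clones, are not given in the sources used here. The pooled lists come from EB labelled 12 h (uninduced, induced, and induced and sorted as Flk1-positive) and from mouse embryonic fibroblasts (MEF). MEF without knockdown were uninduced, or induced for 1, 2 or 7 days, with Flk1-positive cells also sorted on day 7. MEF with Brg1 knockdown (KD) were taken on day 0, and with or without Dox on days 1, 2 and 7. The lists hold no measure of the Brg1 level, so deletion and knockdown were not checked here. The EB lists of 12 h are from another time and are not labelled as floxed, so they are no controls of the floxed groups.

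Brg1, encoded by Smarca4, is an ATPase of the SWI/SNF (BAF) chromatin remodelling complexes, which slide and evict nucleosomes and are known to keep many enhancers open in embryonic stem cells. Promoters with many CpG dinucleotides and genes read by RNA polymerase III, such as tRNA genes, are generally accessible in most cell types. Etv2 is an ETS-family factor of the endothelial and blood lineages, and Kdr (Flk1) is one of its targets. Bulk lists cannot tell a region open in every cell from one open in a share of the cells.

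One member lay beside a cluster of stem cell miRNA genes and others beside other miRNA genes. Mature products of some of these loci, chosen after their values were seen, are shown because they name the loci. A miRNA pairs with its target RNAs mainly through its seed, bases 2 to 8, which stands in capitals. The sequences are from RefSeq (GRCm38.p6, the mm10 build), written 5′ to 3′.
mmu-miR-302b-3p: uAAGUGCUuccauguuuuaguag
mmu-miR-302d-3p: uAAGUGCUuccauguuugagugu
mmu-miR-302c-3p: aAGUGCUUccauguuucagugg
mmu-miR-367-3p: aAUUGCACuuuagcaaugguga
mmu-miR-9-5p: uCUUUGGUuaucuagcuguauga
mmu-let-7i-5p: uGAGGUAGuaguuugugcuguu
mmu-miR-193a-3p: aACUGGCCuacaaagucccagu
The table's entries for miR-302b-3p and miR-302d-3p share the seed AAGUGCU. Its entry for miR-302c-3p begins 1 base later in the same stretch, so bases 2 to 8 there read AGUGCUU. The other miRNAs shown have seeds of their own.

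Other members fell on annotated transcription starts, inside genes or of lncRNA genes between them, and the 250 bases before the start are shown for the 5 such members whose lowest score percentile over the 4 libraries was highest. They let a reader see what kind of sequence the gene-end rule let through. Capitals mark matches, on either strand, to GGGCGG (the GC box bound by SP and KLF factors) or CCAAT (the CCAAT box), whose reverse complements are CCGCCC and ATTGG. Sequences are from RefSeq (GRCm38.p6) and read along the gene's strand.
Kifap3, chr1:163779333-163779582, plus strand: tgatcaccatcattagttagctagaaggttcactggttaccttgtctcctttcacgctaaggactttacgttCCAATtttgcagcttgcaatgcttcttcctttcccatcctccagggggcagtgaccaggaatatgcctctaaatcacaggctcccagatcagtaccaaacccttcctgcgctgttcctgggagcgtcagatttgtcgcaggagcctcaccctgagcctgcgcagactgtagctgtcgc
Chaserr, chr7:73558396-73558645, minus strand: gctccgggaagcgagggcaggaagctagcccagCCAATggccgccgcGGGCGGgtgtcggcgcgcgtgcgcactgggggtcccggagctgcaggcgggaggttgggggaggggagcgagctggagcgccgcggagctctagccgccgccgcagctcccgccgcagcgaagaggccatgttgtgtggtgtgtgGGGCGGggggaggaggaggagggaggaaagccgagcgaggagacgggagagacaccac
1700030C10Rik, chr12:20815780-20816029, minus strand: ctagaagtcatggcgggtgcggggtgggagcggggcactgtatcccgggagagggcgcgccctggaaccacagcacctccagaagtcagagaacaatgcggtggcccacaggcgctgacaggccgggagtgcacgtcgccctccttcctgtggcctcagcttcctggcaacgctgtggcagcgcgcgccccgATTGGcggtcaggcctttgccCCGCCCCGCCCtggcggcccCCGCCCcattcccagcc
Hif1a, chr12:73907617-73907866, plus strand: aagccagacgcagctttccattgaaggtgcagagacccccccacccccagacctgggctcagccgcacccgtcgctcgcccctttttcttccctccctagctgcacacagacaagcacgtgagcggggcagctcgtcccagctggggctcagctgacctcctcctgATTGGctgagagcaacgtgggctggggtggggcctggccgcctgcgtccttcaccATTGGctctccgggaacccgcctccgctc
Iffo2, chr4:139574470-139574719, plus strand: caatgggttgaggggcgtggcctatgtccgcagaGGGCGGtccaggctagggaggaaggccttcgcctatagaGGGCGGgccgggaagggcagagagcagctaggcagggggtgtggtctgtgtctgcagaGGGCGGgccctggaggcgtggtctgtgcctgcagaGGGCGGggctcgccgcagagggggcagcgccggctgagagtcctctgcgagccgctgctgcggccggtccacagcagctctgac
The Chaserr, Hif1a and Iffo2 members lay 228, 58 and 206 bp before the start, inside the printed stretch. The Kifap3 and 1700030C10Rik members lay 24 and 43 bp after it. The Iffo2 stretch holds 4 GC boxes and no CCAAT box, and the Kifap3 stretch holds 1 CCAAT box and no GC box.

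The selection kept a minority of the anchor summits. Of all 31436, 11260 (35.8%) had a partner in each of the other 3 floxed lists. Among the 15901 distal ones the count was 2422 (15.2%), and 223 of these were in all 15 pooled lists and so were not members. A set used for comparison is the 3458 distal summits found in both replicates without 4OHT and in neither with it, called missing after 4OHT below. The lists without 4OHT hold 31436 and 23823 summits and those with 4OHT 17946 and 20229, so some summits may be missing because a list is short, and this was not tested.

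The members stood above the middle of the anchor list and around or below the middle of the lists with 4OHT. The deposited score is a −log10 q value given by the peak caller, and its rank was taken within each list. The median member stood at percentile 64.3 and 52.9 in replicates 1 and 2 without 4OHT, and at 46.0 and 51.4 with 4OHT. These ranks come from lists of different lengths, so whether accessibility changed cannot be read from them. In the anchor library the median score was 12.99 for members, 7.58 for distal summits missing after 4OHT and 23.3 for the 8838 summits that recurred in all 4 libraries but lay within 5 kb of a gene end. The partner of a member lay at a median of 61 bp in replicate 2 without 4OHT, and at 63 and 59 bp in the libraries with 4OHT.

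Members near the limits of the rule were described once. The member with the farthest partner inside the limit, at 250 bp, was chrX:145908610, and the nearest summit outside, at 251 bp, was chr10:112425565 inside Kcnc2. The member closest to a gene end lay 5006 bp from Brf1, and the closest recurrent summit outside lay 4994 bp from an end of Fbxo43. There were 153 members with their farthest partner at 226 to 250 bp, and 107 distal summits at 251 to 275 bp. In 14 of the pooled lists, 1 short of being left out, stood 143 members.

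The name distal held only for the ends of gene intervals. Of the 2199 members, 479 (21.8%, exact 95% interval 20.1 to 23.6) lay within 1 kb of a transcription start annotated in RefSeq, against 8.35% of all distal summits. Among those missing after 4OHT the count was 224 of 3458 (6.48%, 5.68 to 7.35). Intervals here are Clopper-Pearson and cover counting error only. The start table used here has no entry on chromosome 18, and over the other chromosomes the shares were 22.6% and 6.70%.

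Protein-coding starts made up most of the excess. These were the starts of 337 members (15.3%), against 78 (2.26%) of the summits missing after 4OHT, whose intervals do not overlap. For lncRNA starts the counts were 142 (6.46%) and 146 (4.22%). Looked at from the start's side, 703 distal summits lay at a coding start, and 337 of them (47.9%) were members and 78 (11.1%) were missing. Members at coding starts sit at inner starts of genes, as the rule excludes the outer ends.

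**Figure D1:**
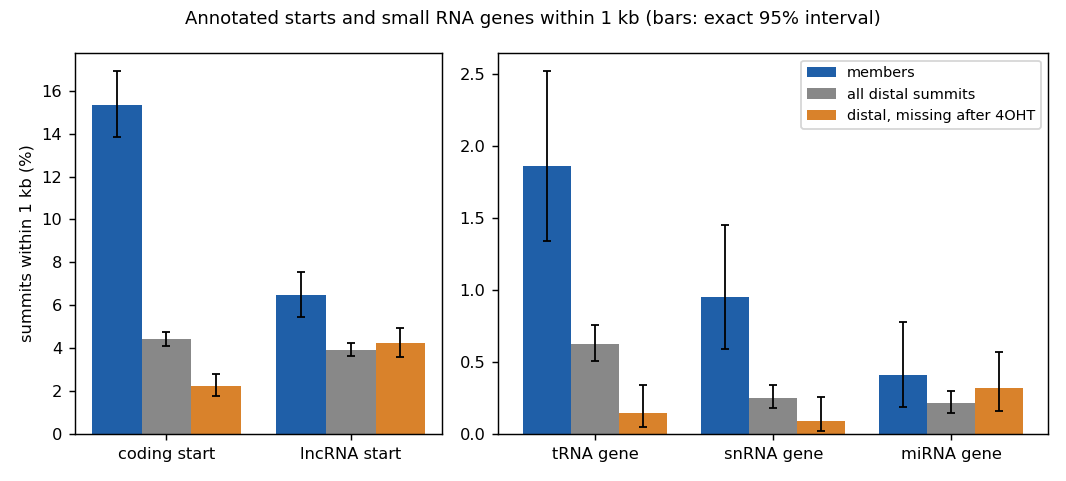
Share of summits within 1 kb of an annotated start (left) or of a tRNA, snRNA or miRNA gene (right), for the 2199 members, all 15901 distal summits of the anchor library, which include the members, and the 3458 distal summits missing after 4OHT. Vertical lines are exact 95% intervals; coding starts reach 15.3% of members and 2.26% of the missing set, whereas the miRNA intervals overlap.

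The member at Kifap3, which encodes a kinesin-associated protein, had the highest lowest percentile of those at starts. Its scores were 88.9 and 67.3 without 4OHT and 61.1 and 98.9 with 4OHT, and it was in 13 pooled lists. The 4 values of both groups overlap. The member at Hif1a, the oxygen-regulated subunit of the hypoxia-inducible factor, scored 64.9 and 30.3 without 4OHT and 65.4 and 77.8 with it, and was also in 13 lists. At Chaserr, a long non-coding RNA that lies upstream of Chd2, the scores were 50.1 and 34.1 without and 73.9 and 84.4 with 4OHT. These starts were listed in all 3 EB lists and in all 5 MEF lists without knockdown. The member at 1700030C10Rik, another lncRNA, was different. It scored 52.9, 30.4, 51.0 and 57.6 in the same order and was in 5 pooled lists, of which the uninduced EB and MEF lists were none. At Iffo2 the scores were 39.9, 37.4, 47.2 and 63.6, with 14 lists.

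Start windows that held a member were rich in CpG. RefSeq start windows reach from 250 bases before to 50 after the start, and 317 members lay inside one. The 361 windows holding a member, of 331 genes, had a median GC content of 65.3% and a median ratio of observed to expected CpG of 0.761. All 32619 windows had 53% (a whole value as measured) and 0.387, and the 105 windows holding a summit missing after 4OHT had 55.7% and 0.337. Windows holding a recurrent summit near a gene end had 64.3% and 0.834, so the member windows were near these in base composition.

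The motif counts of the same windows were as follows, with each motif searched as exact letters on both strands and none containing another. GGGCGG was in 75.6% of the windows holding a member, 39.0% of those holding a missing summit, 77.5% of those at recurrent summits near gene ends, and 35.9% of all windows. The ETS-type motif CCGGAAG was in 11.6%, 1.90% (only 2 of 105 windows), 23.4% and 8.92% in the same order. CCAAT was in 39.3%, 26.7%, 44.8% and 37.6%. TATAAA, the core of the TATA box, was in 3.32%, 7.62%, 4.39% and 13.7%. TGAGTCA, the AP-1 site, was in 2.77%, 4.76%, 2.54% and 5.22%. TGACGTCA, the cAMP response element, was in 3.05%, 2.86%, 4.30% and 1.80%. GC boxes were more frequent and the TATA motif less frequent in the member windows than in all windows. The median GC content of these windows also differed (65.3% against 53%), and no share was taken at matched GC content. The ETS-type motif was less frequent in the member windows than near gene ends. A match is a description of the letters and not a bound site.

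Genes for small RNAs were a second group of neighbours that the gene-end rule did not exclude. The examples below were chosen after their values were seen. Members within 1 kb of a tRNA gene numbered 41 (1.86%, 1.34 to 2.52), against 0.623% of distal summits and 5 of the 3458 missing after 4OHT (0.145%). Of the 99 distal summits at tRNA genes, 41 were members, 5 were missing after 4OHT and 53 had another pattern. The counts in the missing set were small and moved when a library was left out, while the direction stayed. Without replicate 1 of that group it was 50 of 2469 members against 19 of 5795 missing, and without replicate 2 it was 55 of 3122 against 19 of 10430.

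The tRNA members sat close to the genes and were shared across cell types. The median distance to the gene was 122 bp, and 35 of the 41 lay within 250 bp. All but 1 were in all 3 EB lists, and none was absent from every MEF list. In the uninduced MEF list 97.6% were found, and 90.2% in the KD day 0 list. On day 7 the shares were 29.3% in MEF without knockdown, 9.76% in KD MEF without Dox and 7.32% with Dox, in lists of 18418, 11188 and 13644 summits.

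A stretch of chromosome 13 from 21.17 to 23.45 Mb held 17 of the 41, where a large histone gene cluster lies, and 4 of them had a histone gene as the nearest coding gene. The alanine-type gene named n-TAagc16 in the table lay 16 bp from a member that scored 9.79 and 4.03 without 4OHT and 7.65 and 9.47 with it. The serine-type gene n-TSgct5 lay 329 bp from one that scored 30.1 and 26.4 without and 44.7 and 41.0 with 4OHT. The first member had weak scores in all 4 libraries and the other strong ones, and both were in all 3 EB lists and in 4 of the 5 MEF lists without knockdown. Outside the cluster, the member 166 bp from n-TNgtt14 on chromosome 5 scored 34.6 and 32.6 without and 33.2 and 47.6 with 4OHT.

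Small nuclear RNA genes encode the RNAs of the spliceosome and related particles, and they too were more frequent beside members, in smaller numbers. Members within 1 kb of one numbered 21 (0.955%), against 0.252% of distal summits and 3 of those missing after 4OHT. Of the 40 distal summits at snRNA genes 21 were members and 3 were missing. Unlike the tRNA members, 4 of the 21 were in no MEF list, and 61.9% were in the uninduced MEF list. The named U1 genes Rnu1b1 and Rnu1b2 on chromosome 3, Rnu1a1 on chromosome 11, the U2 gene Rnu2-10 and the U5 gene Rnu5g each had a member within 81 bp. At Rnu2-10 the scores were 25.7 and 12.3 without 4OHT and 18.1 and 38.7 with it, and the member was in 13 pooled lists. At Rnu1b1 they were 16.3, 14.8, 22.7 and 26.5 in the same order, and this member was in the 3 EB lists and in no MEF list. The U1 genes therefore differed in the MEF lists, since the Rnu1a1 member was in all 5 MEF lists without knockdown. Near-identical gene copies share reads, and how reads with several matches were placed is not given in the sources used here.

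At miRNA genes the share was 0.409% (9 members) against 0.214% of distal summits and 11 of those missing after 4OHT. The exact interval for members, 0.187 to 0.776%, includes the share of distal summits. The member at chr3:127544949 lay 279 bp upstream of Mir302b, the first hairpin of the miR-302 cluster, which ends with Mir367, whose miRNAs mark pluripotent cells. It scored 21.6 and 14.3 without 4OHT and 19.2 and 26.1 with it, and both groups overlap. It lay 140 bp from an annotated start of Gm51018, and it was in the 3 EB lists and in none of the 12 MEF lists. The member 398 bp upstream of Mir9-3, a miRNA gene of the neural lineage, scored 13.3, 7.46, 9.65 and 8.57 and had the same list pattern. By contrast, the member 613 bp upstream of Mirlet7i, a let-7 gene, scored 23.2 and 6.64 without and 36.2 and 39.8 with 4OHT and was in all 5 MEF lists without knockdown. The member 778 bp upstream of Mir193a scored 8.71, 10.6, 15.5 and 15.05 and was also in all 5. The remaining miRNA members lay near Mir1191b, Mir1983, Mir713, Mir1904 and Mir1893, and all were in the 3 EB lists and in some MEF lists. The member near Mir1983 was also counted at the tRNA gene n-TItat14. The printed sequences of miR-302b-3p and let-7i-5p thus belong to loci that were listed in floxed EB with and without 4OHT and differed in the MEF lists.

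Nearly all members were open in the other EB lists, and fewer in MEF. In the uninduced EB list 95.1% of members had a partner, in the induced list 95.7% and in the Flk1-positive list 93.3%. The shares over all distal summits were 75.2%, 71.1% and 61%, and over those missing after 4OHT 79.2%, 72.2% and 60.4%. In all 3 EB lists were 2002 members (91.0%) and 55.9% of the missing set. Each pooled list is 1 value per group, so these shares have no replicate error and no test was made.

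In the uninduced MEF list 48.4% of members had a partner (46.3 to 50.5), against 25.7% of distal summits and 20.5% of the missing set. On day 1 the share was 48.2% (distal 22.5%), on day 2 it was 37.3% (14.5%) and on day 7 it was 26.7% (9.62%). In Flk1-positive cells of day 7 it was 38.0% (15.3%). Members exceeded the distal background in each of the 5 lists. In the anchor library, all distal summits stood at a median score percentile of 34.3 and members at 64.3. Shares of all distal summits were not split by score, here or in the EB and KD lists. These excesses are therefore not read apart from score. The fall with the day runs alongside the list lengths, which are 62028, 50015, 26217 and 18418 summits, and 29520 in Flk1-positive cells, and the part of length was not tested. The rule left out summits of all 15 lists, and with them the uninduced MEF share was 53.2%.

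The MEF lists with Brg1 knockdown also held members above the distal background. The share was 47.2% on day 0 (distal 20.8%), 47.2% on day 1 without Dox (21.1%) and 39.5% with Dox (16%). On day 2 it was 52.9% without Dox (23.7%) and 42.9% with Dox (20.4%). Day 7 was lowest, with 330 members, or 15.01%, without Dox (7.14%) and 18.6% with Dox (8.28%). The longest of these lists, day 2 without Dox, has 44493 summits, and the day 7 lists have 11188 and 13644. The missing set was lower than the members in all 7 lists, between 1.47% and 15.3%.

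Members at annotated starts and the other members parted in MEF. In the uninduced MEF list 82.5% of the 479 members at starts were found (78.8 to 85.8) and 39.0% of the other 1720 (36.6 to 41.3). Their EB shares differed little, at 97.1% and 94.6% in the uninduced list. The order turned in the KD day 7 lists, where 8.35% of members at starts and 16.9% of the others were found without Dox, and 11.1% and 20.8% with Dox. When summits of all 15 lists were put back, the values were 19.3% (16.1 to 22.9) and 23.9% (21.9 to 25.8) without Dox. With Dox they were 21.7% (18.298 to 25.396) and 27.4% (25.415 to 29.501). The order stayed, but the differences were smaller, and the intervals overlapped without Dox and barely parted with it. Part of the turn thus came from the rule. These lists are the shortest of the 15. Away from starts the members still exceeded the missing set in the uninduced MEF list, at 39.0% against 20.5% with starts kept in the latter.

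**Figure D2:**
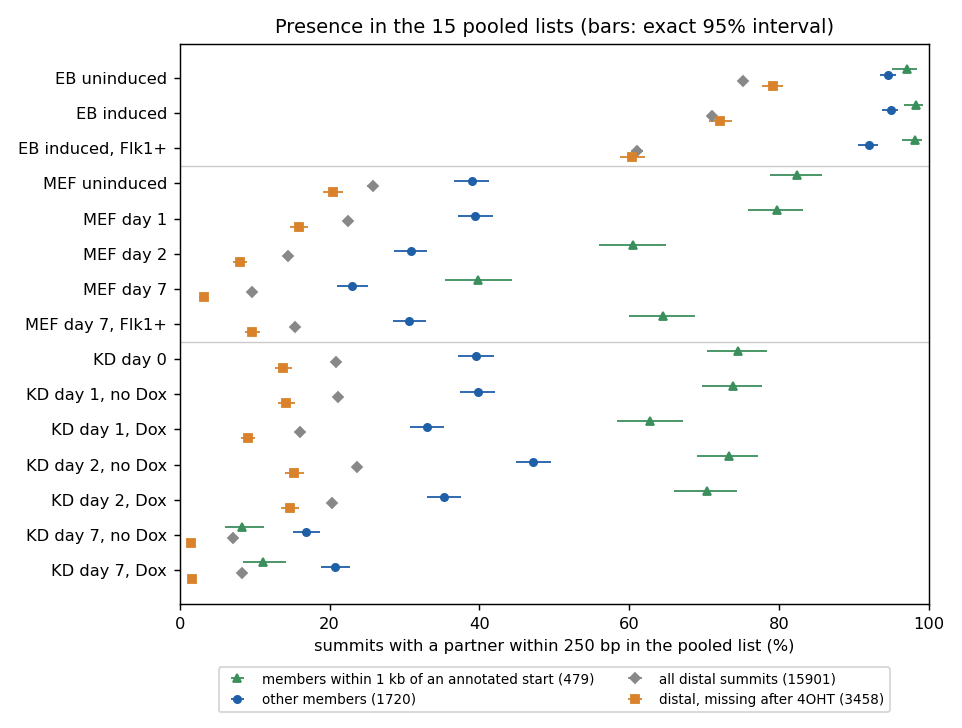
Share of summits with a partner within 250 bp in each of the 15 pooled lists, for members at annotated starts, other members, all distal summits and distal summits missing after 4OHT, with numbers in the legend and exact 95% intervals as horizontal lines. EB lists stand above the upper grey line and knockdown (KD) lists below the lower one. In the uninduced MEF list members at starts reach 82.5% and other members 39.0%, and in the KD day 7 lists this order turns. With summits of all 15 lists put back (not drawn), the KD day 7 differences are smaller, and the intervals without Dox overlap.

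The difference from the missing set depended on the score. The anchor summits were split by the percentile of their score in bins of 20. In the lowest bin, 12.7% of 142 members and 17.3% of 531 missing summits were in the uninduced MEF list, with intervals that overlap (7.69 to 19.3 and 14.2 to 20.8). In the next bin the shares were 18.5% and 19.6%. They then parted, at 30.9% and 21.6% for percentiles 40 to 60, 57.7% and 21.1% for 60 to 80, and 77.6% and 25.5% for 80 to 100. The share of the missing set stayed within 17.3% to 25.5% while that of the members rose with the score. Among the highest-scoring summits only 98 were missing and 550 were members.

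Other features behaved differently across the same bins. In the uninduced EB list members were ahead in the lowest bin already, at 93.7% against 68.2%. In the KD day 0 list they were ahead in all 5 bins, from 21.1% against 9.42% in the lowest to 66.9% against 17.3% in the highest. The share at annotated starts was 0.704% of members and 4.52% of missing summits in the lowest bin, and 37.5% and 10.2% in the highest. The tRNA share of members was between 1.64% and 3.08% in each bin, and that of missing summits was at most 0.188%. The tRNA intervals overlapped in the lowest and highest bins, with 3 of 142 members against 1 of 531 missing summits in the lowest, and did not overlap in the 3 bins between. At snRNA genes the counts were 0 of 142 members and 2 of 531 missing summits in the lowest bin. In the highest they were 8 of 550 and 0 of 98.

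**Figure D3:**
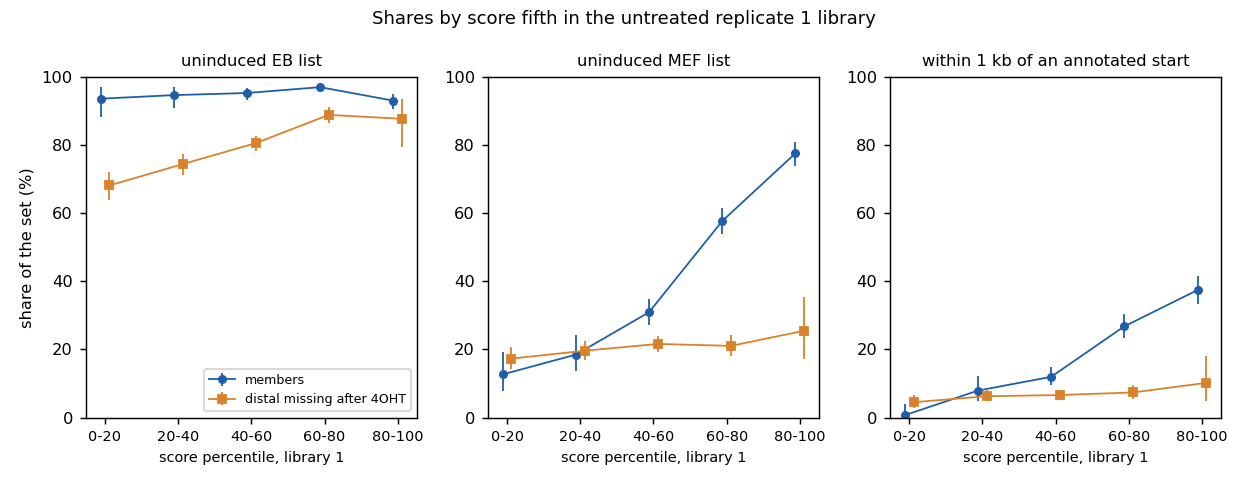
Share of members and of distal summits missing after 4OHT in the uninduced EB list, in the uninduced MEF list and within 1 kb of an annotated start, by bins of 20 percentiles of the score in replicate 1 without 4OHT, with exact 95% intervals. In the MEF panel the curves overlap in the lowest bins and part to 77.6% and 25.5% in the highest.

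By the number of pooled lists the members fell into 2 heaps. In exactly 3 lists were 618 members (28.1%), and 607 of these were in the 3 EB lists and in no MEF list (27.6%, against 28.8% of distal summits, so this share is near the background). At the other end, 611 members (27.8%) were in 12 or more lists, against 8.96% of distal summits and 3.41% of the missing set. The remaining 981 were spread between. No MEF list without knockdown held 906 members (41.2%), against 68.5% of distal summits. Members in no pooled list numbered 27 (1.23%), against 15.3% of distal summits.

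**Figure D4:**
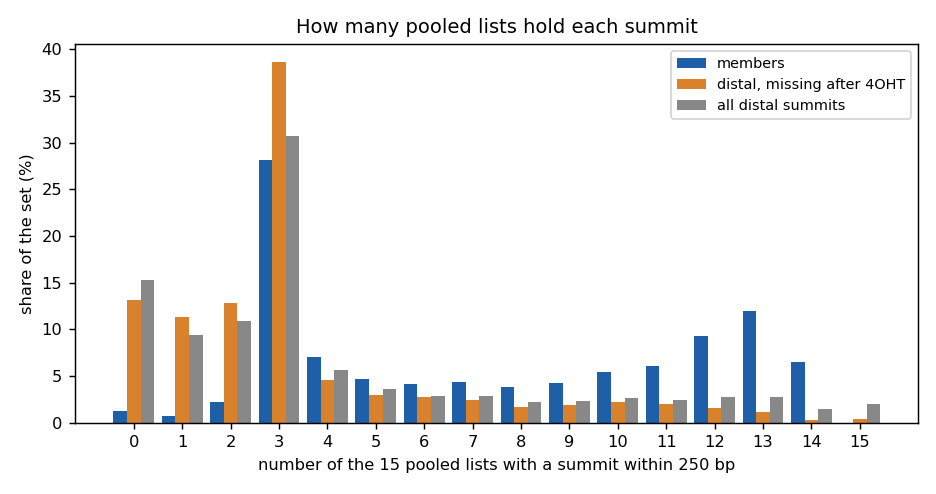
Share of each set by the number of the 15 pooled lists that hold a summit within 250 bp. Members have a peak at 3 lists (28.1%) and a broad one up to 14, and by the rule none is in all 15.

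The EB-restricted and the widely shared members differed in place. The 607 found in all 3 EB lists and in no MEF list lay at a median of 42142 bp from a gene end, 10.0% of them were at annotated starts and none was at a tRNA gene. The 611 widely shared ones lay at 18070 bp, 39.4% were at starts and 25 were at tRNA genes. These values were not computed for all distal summits of the same list patterns, so they are not read as a trait of the members. The EB-restricted members stood lower in the floxed lists, at median percentiles of 55.2 and 43.5 without 4OHT and 36.8 and 42.8 with it. The widely shared stood at 79.2, 72.7, 62.1 and 64.3. The highest of the EB-restricted members were chr4:82513275, 6524 bp from Nfib, which encodes a nuclear factor I, and chr8:69121848, 8130 bp from Atp6v1b2, a subunit gene of the vacuolar proton pump. The Nfib member scored 35.4 and 27.9 without 4OHT and 45.6 and 42.8 with it, and the other scored 51.9, 30.2, 31.7 and 38.9. Further ones stood 39563 bp from Pim1, a kinase gene, and inside Usp44, a deubiquitinase gene. Another had Gli3, a transcription factor gene of Hedgehog signalling, as the nearest coding gene, at 68321 bp. These were picked from the highest of the class after their values were seen.

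Few members opened with Etv2 in EB at the match window of 250 bp. A summit in both induced EB lists and not in the uninduced one was found for 30 members (1.36%, 0.922 to 1.94), against 2.45% of distal summits, and 90 of the 390 distal summits of this pattern were missing after 4OHT. The count rests on the match window, with 13 at 500 bp and 73 at 100 bp, where members were fewer and the share therefore higher. The distal share at 100 bp was not computed, so the comparison with 2.45% holds for 250 bp only. The count also rests on the libraries, with 46 without replicate 1 and 50 without replicate 2 of the group without 4OHT. Of the 30, 10 were at annotated starts, among them those of Kdm4c, a histone demethylase gene, Prickle1, a planar polarity gene, and Gnas, the gene of a stimulatory G protein subunit. At Kdm4c the scores were 34.5 and 27.1 without 4OHT and 38.3 and 49.1 with it, and the member was in all 5 MEF lists without knockdown. The member inside Elk3, an ETS-family gene of the endothelial list, had the same EB pattern and was in no MEF list, with weak scores of 2.10, 2.64, 6.56 and 3.29. A gain in MEF, absent uninduced and present on day 1 and in Flk1-positive cells of day 7, was found for 55 members. That was 2.50% of members, against 173 of all distal summits (1.09%), of which 16 were missing after 4OHT.

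Most members lay away from annotated starts, inside or between genes. Inside a protein-coding gene interval were 1018 (46.3%, against 40.8% of distal summits). The median distance to the nearest gene end was 31068 bp, against 37185 bp for all distal summits. Over 500 kb away lay 107 members (4.87%), near the share of distal summits (4.27%). The farthest were chr14:82084416, at 2061275 bp from Olfm4, chr8:51569901, at 1941782 bp from Aga, and chr5:60042971, at 1765872 bp from G6pd2. The first scored 6.57 and 6.48 without 4OHT and 25.5 and 13.5 with it and was in 13 pooled lists, while the second scored 7.58, 2.64, 5.51 and 5.20. The third scored 1170 and 902 without 4OHT and 1094 and 1168 with it. It was in 2 pooled lists, those of KD day 7, and belongs to the small group with very high scores described below. The first and the third thus differed in presence, though both lay far from genes.

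Around genes of development, members were counted within 50 kb of the gene interval. The lists below were written with earlier results of these data known and are descriptions. Of all 21631 protein-coding genes, 13.7% had at least 1 member. The share was 26.7% of 30 pluripotency genes, 35% of 20 neural genes, 28.6% of 14 endoderm genes, and 23.8% of 21 haematopoietic genes. Of 32 mesoderm genes 4 had a member. For 40 endothelial genes the share was 15%, for 17 cardiac genes 11.8% and for 25 fibroblast genes 8%. It was also 25% of 20 housekeeping genes, 23.8% of 21 SWI/SNF genes and 30% of 10 insulator and cohesin genes. Lists of this size move by several points with 1 gene. The lists differ in how many distal summits lie nearby, so members were also set against distal summits, each counted once per gene. Over all genes 3437 of 21191 distal summits were members (16.2%). Around pluripotency genes it was 10 of 63 (15.9%), near that background, around neural genes 9 of 44 (20.5%), endoderm genes 4 of 19 (21.1%) and haematopoietic genes 6 of 32 (18.8%). Around mesoderm genes it was 6 of 64 (9.38%) and around endothelial genes 9 of 72. Around fibroblast genes it was 2 of 42 (4.76%) and around cardiac genes 2 of 27 (7.41%). The largest share of these lists was at housekeeping genes, 7 of 16 (43.8%). A member is counted for each gene within 50 kb, also where another gene is nearer. That was so for both Eef1a1 members and for those of Hprt and Sdha, but not for those of Ywhaz and Eif4a2. At SWI/SNF genes it was 5 of 23 (21.7%), and at insulator and cohesin genes 3 of 14 (21.4%).

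The pluripotency genes with most members were Fgf5, a growth factor of primed pluripotent cells, and Nanog, a core pluripotency factor, with 2 each. The Fgf5 members lay 16189 and 33267 bp from the gene and were in no MEF list. The nearer scored 6.57 and 6.30 without 4OHT and 18.01 and 12.8 with it, and the farther 11.9, 8.88, 14.1 and 9.55. At the nearer one the values with 4OHT were above those without, and at the farther one the groups overlapped. The Nanog members lay 37896 and 27972 bp from the gene. The first scored 21.5 and 8.53 without and 15.7 and 6.37 with 4OHT and was in 4 of 5 MEF lists without knockdown, and the other scored 13.1, 6.77, 6.52 and 10.2 and was in none of these. None of the 4 distal summits around Nanog was missing after 4OHT. Sox2 and Pou5f1, the other core factors, had no member, with 2 and 0 distal summits in all.

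Among mesoderm genes Hand2, a factor of heart and limb, stood out by count, with 3 of its 4 distal summits being members and 0 missing. The 3 lay 8294, 16552 and 29296 bp from the gene and were in all EB lists and in no MEF list without knockdown. Their scores were 16.97 and 9.95 without and 15.2 and 15.9 with 4OHT at the nearest. At the middle one they were 16.6 and 20.3 without and 9.34 and 7.76 with 4OHT, and at the farthest 24.4 and 16.3 without and 8.72 and 12.503 with 4OHT. At the middle and the farthest both values with 4OHT were below both without, and score depends on depth, so no change is read from this. The gene T (brachyury), the marker of early mesoderm, had 4 distal summits, 0 members and 3 missing after 4OHT, and Eomes had 4, 0 and 1. The mesoderm genes Msgn1, Snai1 and Wnt3 had 1 member each, and the one counted for Snai1 was 43 bp from a start of Rnf114. The cardiac list held members at Gata4, 1 of 6 distal summits, and at Smarcd3, the gene of the BAF subunit of heart and muscle.

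Endothelial and blood genes had members at a few loci. Eng, a co-receptor of endothelial cells, had 2, of which 1 was at an annotated start of Fpgs and 1 at a start of Sh2d3c. Ets1, an ETS factor, had 2 inside the gene. The stronger Ets1 member, chr9:32696007, scored 50.8 and 34.3 without 4OHT and 27.8 and 32.4 with it and was in 14 pooled lists. The weaker, chr9:32672260, scored 22.6 and 14.5 without and 7.65 and 5.20 with 4OHT and was in 8. Pecam1, an adhesion molecule of endothelium, had 2 weak members, scoring 4.70, 5.78, 3.68 and 5.77 at the one and 6.11, 1.54, 4.53 and 4.22 at the other. The endothelial genes Cd34, Elk3 and Nrp2 had 1 each, and the one counted for Cd34 was 370 bp from a start of Gm16897. Of the blood genes Mecom had 2, and Cbfa2t3, Ikzf1, Lmo2 and Myb had 1 each. Kdr, Etv2, Tal1 and Gata2 had none, and the single distal summit within 50 kb of Kdr was missing after 4OHT.

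Of the 7 neural genes with a member, Zic2 and Zic5, neighbouring zinc finger genes that share 1 of them, had 2 each, and Meis2, Olig2, Pax3, Sox11 and Zic1 had 1 each. The members at Zic2, Zic5 and Meis2 were in no MEF list without knockdown, whereas the Zic1 member was in 2 of these. The Zic2 member 10508 bp from the gene scored 15.8 and 9.71 without 4OHT and 2.44 and 13.3 with it, so the 2 libraries with 4OHT were far apart. In the same list, the member 22053 bp from Sox11 was chosen here after its values were seen. It scored 36.0 and 15.5 without and 2.61 and 2.40 with 4OHT, at percentile 93.4 in the anchor library and 4.00 in replicate 1 with 4OHT. It remained a member because the rule asks for presence only. Endoderm genes with 1 member were Cer1, Cubn, Dab2 and Foxa1, and the Dab2 member was 129 bp from an inner start of that gene. The one counted for Foxa1 was 354 bp from a start of Gm30518, and the one for Cer1 lay 32293 bp from it and nearer to an end of Zdhhc21. The fibroblast list had Tead1 and Thy1, and the member counted for Thy1 was 101 bp from a start of Usp2.

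Genes of the remodeller itself and of genome structure were included. Smarca4 had no member and 1 distal summit, which was not among those missing after 4OHT. Arid1b, Smarca2, Smarcb1, Smarcc1 and Smarcd3, genes of BAF subunits or the alternative ATPase, had 1 each. The one counted for Smarcc1 was 17 bp from a start of Dhx30 and 30954 bp from Smarcc1. The one counted for Smarcb1 lay 23823 bp from it and nearer to Mif. The member inside Smarca2, the gene of the other ATPase (Brm), scored 10.6 and 7.76 without 4OHT and 5.24 and 10.8 with it. It was in no EB list of 12 h and in all 5 MEF lists without knockdown and 5 with it. Ctcf, the insulator factor, had 1 member, 33 bp from a start of its neighbour Ripor1, and the others of this list were near Smc3 and Yy1. The one counted for Yy1 was 43 bp from a start of Gm33628 and 34797 bp from Yy1. The one counted for Smc3 lay 31428 bp from it and nearer to an end of Rbm20. Among housekeeping genes Eef1a1 and Ywhaz had 2 each, and Eif4a2, Hprt and Sdha had 1 each. The 2 counted for Eef1a1 lay 38830 and 45731 bp from it and nearer to Slc17a5. Those counted for Hprt and Sdha lay 35655 and 49364 bp away and nearer to Plac1 and Zfp72.

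**Figure D5:**
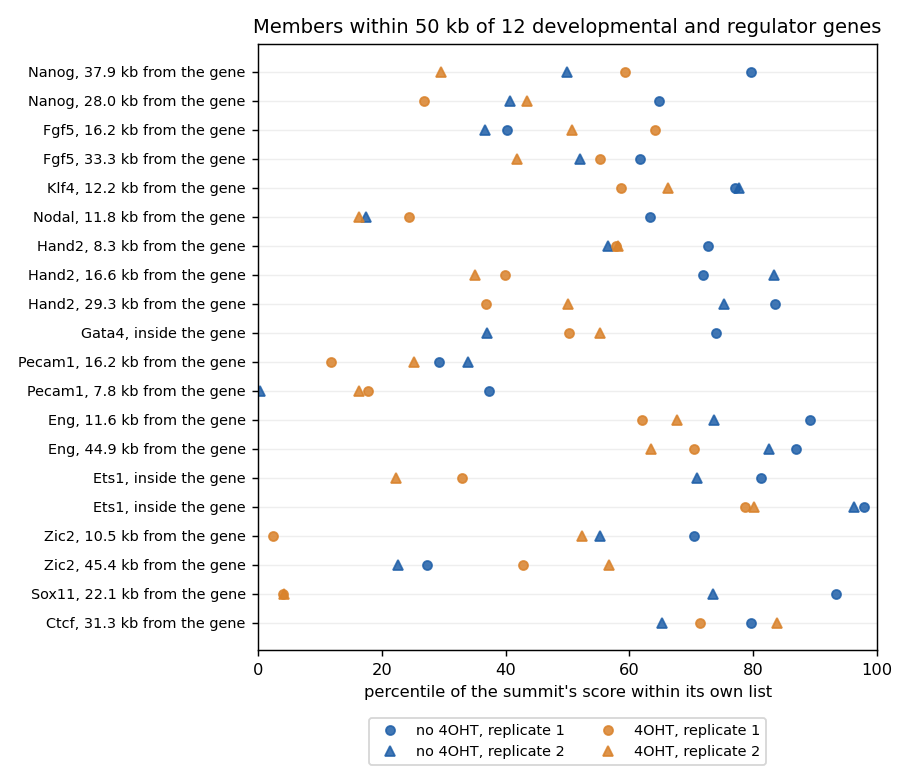
Percentile of the score, within its own list, of each member within 50 kb of 12 genes of development and gene regulation in the 4 floxed libraries, by treatment (colour) and replicate (shape); labels give the distance to the gene interval. Whether accessibility changed cannot be read from ranks in lists of different lengths. The Sox11 member stands at 93.4 in the anchor library and at 4.00 in replicate 1 with 4OHT, and the stronger Ets1 member is high in all 4.

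Most members had no other member within 50 kb. The median distance to the nearest other member was 302964 bp, and 341 (15.5%) had another within 50 kb. Spacing was not computed for all distal summits, so these values are not read as a trait of the members. The longest run had 7 members between 47744305 and 47778413 of chromosome 6, with Gm40363 and Pdia4, the gene of a protein disulphide isomerase of the endoplasmic reticulum, as the nearest coding genes. Its members were in 7 to 14 pooled lists. The strongest of them, chr6:47763367, scored 57.0 and 41.5 without 4OHT and 97.5 and 99.0 with it. The weakest in the anchor library, chr6:47778413, scored 7.71, 8.58, 12.9 and 14.6. The next run, 5 members on chromosome 12 from 54714243 to 54738537, lay between Eapp and Snx6, and each was within 78 bp of an snRNA gene. A run of 4 lay near Mid1 on the X chromosome. Runs of 3 lay beyond Chd2 on chromosome 7 and inside Myo10, an unconventional myosin gene, on chromosome 15. The Myo10 members were in 3 to 10 lists and had anchor scores of 5.13 to 17.02.

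A small group with very high scores stood apart from the rest. In all 4 floxed lists 27 members were in the top 0.5% of scores. The highest, chr6:103649199 inside the interval of Chl1, a cell adhesion gene, scored 2480.1 and 2115 without 4OHT and 3263 and 3318 with it. It was in 9 pooled lists, of which the uninduced EB list was none. The next, chr1:24613314, 25392 bp from Col19a1, scored 2146, 1783, 2502 and 2841 and was in 6. The presence of the 27 did not follow the EB and MEF pattern of the other members. Of them 11 were in the uninduced EB list, 3 in the KD day 2 list without Dox, and 22 and 25 in the KD day 7 lists without and with Dox. The 16 absent from the uninduced EB list had their nearest summit there at a median of 10460 bp. They included 7 of the 30 members described as opened with Etv2 in EB, and without the highest-scoring members that count was 23. Whether a filter on repeats or artefact-prone regions was applied to any list is not given in the sources used here.

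Of the 27 members in no pooled list, the 10 with the highest lowest percentile are described here, and the tenth was already at percentile 33.4 in its lowest library. The first, chr1:191120990, lay 88 bp from the start of the lncRNA Gm46178 and 12047 bp from Batf3, and scored 36.0 and 29.1 without 4OHT and 72.4 and 67.6 with it. Among the 10, 4 lay on chromosome 12 between 19704019 and 22906485, of which the one with the highest lowest percentile scored 22.8 and 22.0 without and 35.1 and 41.6 with 4OHT. At this one both values with 4OHT were above those without. Another, inside Megf11, scored 24.4 and 17.1 without and 7.74 and 10.5 with 4OHT. These regions were therefore listed in the floxed EB of day 4 only among the 19 lists used, and the floxed groups differ from the others in allele, day and form of list together, which cannot be told apart.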

How the data were processed

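The submitters' processing notes name Bowtie2 2.2.4, the mm10 build, MACS2 and HOMER, with no role or order. Trimming, duplicate handling, cut-site shift, repeat filters and how replicates were pooled are not given in the sources used here. The deposited lists give, per summit, a score that is the −log10 of the authors' q value, which grows with depth. Its lowest value fits a threshold of 0.05. Read depth is unknown, and list lengths run from 11188 to 85498 summits.

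Matching, gene distances and exact 95% intervals were computed in Python 3.11.15 with numpy 2.4.6, pandas 2.3.3 and scipy 1.17.1, and tested on simulated summits. Genes, starts and sequences came from RefSeq (GRCm38.p6), whose start table used here has no entry on chromosome 18. Members and gene lists were chosen with earlier results of these data known. Regions are named by fixed rules: the 10 with the highest lowest percentile, the 3 genes per list with most members (ties by symbol), the 5 longest runs (gaps up to 12.5 kb), the 3 farthest from genes, those nearest each threshold, the 10 highest per presence class, the 5 highest at starts with a sequence, and fixed genes. Small RNA genes, Sox11 and the Elk3, Prickle1, Gnas and EB-restricted examples were chosen after their values were seen. As lists of a group give 1 value, no test was made, and p-values are absent. Match window, gene distance, score, list length, anchor and left-out libraries were varied.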

Additional observations from a re-analysis of the deposited data

How the results depend on the processing

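The number of members, 2199, was 972 with a match window of 100 bp, 1339 at more than 20 kb from gene ends and 1398 with a score of at least 5 in the 4 floxed lists. The share in the uninduced EB list, 95.1%, was 77.2% at 100 bp and 97.6% at 500 bp. The share in the uninduced MEF list, 48.4%, was 46.3% at 500 bp, 53.7% at more than 2 kb from gene ends, 38.2% at more than 20 kb, 59.4% with a score of at least 5, 60.8% with floxed lists of equal length, 53.2% with the criterion on pooled lists left out and 39.0% without members at annotated starts. The share in no MEF list without knockdown, 41.2%, was 37.4% at 100 bp, 37.3% at more than 2 kb, 47.7% at more than 20 kb, 31.4% with a score of at least 5, 31.3% with equal lengths, 37.4% with the criterion left out and 48.5% without members at starts. The share inside a protein-coding gene, 46.3%, was 50.6% at more than 2 kb, 39.4% at more than 20 kb, 49.3% with a score of at least 5, 51.1% with equal lengths and 37.7% without members at starts. The cause was not tested.

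Leaving out 1 floxed library in turn gave 2469 to 3122 members, 93.3 to 94.7% in the uninduced EB list, 39.8 to 47.0% in the uninduced MEF list, 42.5 to 48.8% in no MEF list without knockdown and 42.5 to 46.0% inside a gene. The alternatives without the highest-scoring members and without members at starts were chosen after seeing the data. No paired analysis was possible because the results come from presence in lists, with no test. As counts, 4127 of 15901 distal summits of replicate 1 without 4OHT had a partner in replicate 1 with it and 4706 in replicate 2 with it. Of 9970 of replicate 2 without 4OHT, 3617 had one in replicate 2 with it and 3260 in replicate 1 with it. Depth limits these results, since a region absent from a short list may be open below its threshold.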
